A study of Xenopus tropicalis with 21 samples.

Results

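The genes described here were measured in the livers of F2 female tropical clawed frogs, Xenopus tropicalis, whose grandparental (F0) generation had lived in benzo[a]pyrene (BaP), set against F2 females of a control lineage. BaP is a combustion product that binds the aryl hydrocarbon receptor. The F0 frogs were kept at 50 ng/L from the tadpole stage until they were mature adults, and no F1 or F2 female was itself exposed. In this text "BaP" therefore names a lineage, not a treatment of the animal sampled. RNA came from the livers of 5 F2 BaP and 5 F2 control frogs, and the series also holds 6 F1 BaP and 5 F1 control frogs, used here for 1 comparison. The labels give no strain, age, litter or batch of the frogs.

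The authors' F2 table has 20288 rows. A row was kept where the authors had tested it, where it carried 1 gene name and where it reached an FPKM of 1 in either group. FPKM, the fragments of a transcript counted relative to its length and to all mapped fragments, is a level per length. These steps kept 10818 genes, all protein coding. Each gene has 1 FPKM for the 5 F2 BaP frogs and 1 for the 5 F2 control frogs, pooled by the authors. No value of a single frog is in the table, so no SD can be given, the depth of the libraries is unknown, and overlap between frogs of the 2 groups cannot be seen. Fold changes are log2 of the F2 BaP over the F2 control FPKM after adding 0.1 to both, which understates changes of weakly expressed genes. A gene was called, and is said to have risen or fallen in F2 BaP livers, where the authors' q was under 0.05.

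As background, the vertebrate liver makes cholesterol from acetyl-CoA through the mevalonate pathway, and the transcription factor SREBP2 raises the genes of this pathway and the LDL receptor when cells lack sterol. The liver is also the main source of circulating insulin-like growth factor 1 (igf1), whose transcription is driven by growth hormone, and of insulin-like growth factor binding protein 1 (igfbp1), which insulin represses. Immediate early genes such as fos and egr1 are transcribed within minutes of a stimulus, and dusp1 encodes a phosphatase that switches MAP kinases off again. When BaP itself is present, the aryl hydrocarbon receptor induces cyp1a1, which oxidises it.

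In F2 BaP livers, 90 genes rose and 62 fell. Together they were 1.41% of the 10818 genes tested, with 0.832% risen and 0.573% fallen. At this share a short gene list holds few calls or none, so lists without a call are not set apart from all genes. At an unadjusted p under 0.05, 4.41% of genes were higher and 4.71% lower. The median log2 fold change of the risen genes was 1.34, with sizes from 0.83 to 3.94. Among fallen genes the median was -1.32, with falls between 0.85 and 4.47. Over all 10818 genes the median was -0.04, and 54.7% of values lay below 0. A change of at least 2-fold either way was seen in 258 genes, of which 132 were called. Genes known only by a LOC identifier made up 52 of the 152 called genes, or 34.2%, against 9.95% of all genes kept.

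**Figure D1:**
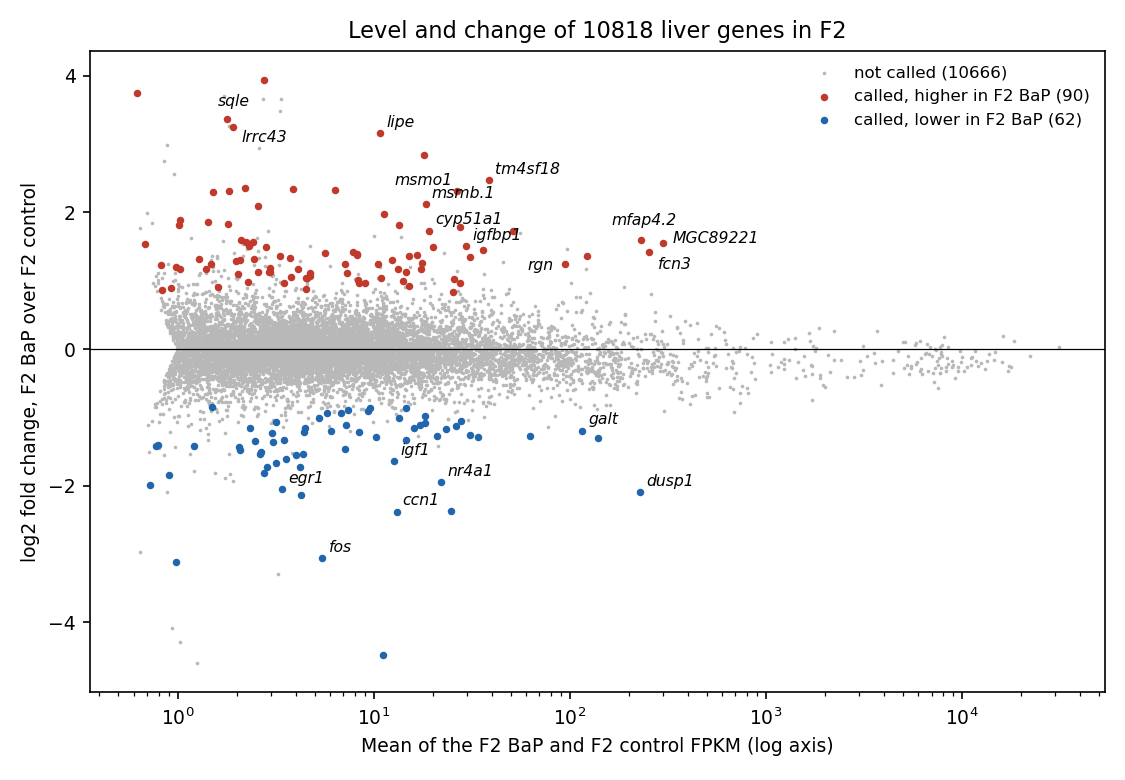
Each point is 1 of 10818 genes, with the mean of the F2 BaP and F2 control FPKM on a log x axis and the log2 fold change, F2 BaP over F2 control, on the y axis. The 90 genes called higher (red) and 62 called lower (blue) spread over low and middle levels, and none of the 131 genes above 1000 FPKM was called.

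The liver label was checked against hepatocyte markers. Of 26 such genes 19 passed the filters, and their summed level was 13995 FPKM in F2 BaP livers and 17061 FPKM in F2 control livers. The protease inhibitor gene serpina1 had 2282 FPKM in F2 BaP and 2552 FPKM in F2 control livers, and the fibrinogen gene fgb had 1603 FPKM in F2 BaP and 2311 FPKM in F2 control livers. Of the 19 markers, 15 lay below 0, with a median log2 fold change of -0.30, and none was called. The table marks 12 rows as holding too much data to test, among them albumin (alb), transferrin (tf), vitellogenin (vtga2) and complement c3, so no level is given for these. Because whole pieces of liver were sequenced, fewer cells of a type and less RNA per cell cannot be told apart in any result below.

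The squalene arm of sterol synthesis held more called genes than any other of the 48 gene lists described here: 5 rose and none fell among 13 genes kept. The genes of this arm and of the mevalonate arm before it are given in the order of their reactions, a choice made after the values were seen. In the mevalonate arm, the acetyl-CoA thiolase gene acat2 had 36.9 FPKM in F2 BaP and 30.9 FPKM in F2 control livers, a log2 fold change of 0.26. The HMG-CoA synthase gene hmgcs1 (chromosome 1, 194959647 to 194972420) had 36.6 FPKM in F2 BaP and 16.5 FPKM in F2 control livers. Its log2 fold change of 1.14 had q 0.125 in the authors' deposited table and was not called.

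The later steps of the mevalonate arm were uneven. The kinase genes mvk and pmvk had log2 fold changes of -0.31 and 0.68, and the decarboxylase gene mvd had 0.52. The isomerase gene idi1 had 26.7 FPKM in F2 BaP and 13.1 FPKM in F2 control livers (log2 fold change 1.02), with q 0.128 in the authors' deposited table. The farnesyl diphosphate synthase gene fdps and the branch enzyme gene ggps1 had 0.28 and 0.37. The authors give fdps the same start and end as pklr, a glycolysis gene, so its separate level is uncertain. Of 9 genes kept in this arm, 4 were higher at an unadjusted p under 0.05 and 8 lay above 0, with a median of 0.52.

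The squalene arm begins with a called gene. Squalene synthase, fdft1, which commits carbon to sterols, had 14.7 FPKM in F2 BaP and 7.09 FPKM in F2 control livers. Squalene epoxidase, sqle, had 3.32 FPKM in F2 BaP and 0.232 FPKM in F2 control livers, the largest log2 fold change of the arm at 3.37, although at the lowest control level of the arm. It passed the FPKM filter through the F2 BaP group only. The cyclase gene lss, which makes lanosterol, had 11.8 FPKM in F2 BaP and 8.75 FPKM in F2 control livers and was not called. Lanosterol then loses its methyl groups. The demethylase cyp51a1 rose by 1.73 and the methyl oxidase msmo1 by 2.31 on the log2 scale. By contrast nsdhl, which works beside msmo1, had 4.58 FPKM in F2 BaP and 4.97 FPKM in F2 control livers. The keto reductase hsd17b7 rose by 0.96 on the log2 scale. The reductase genes tm7sf2 and lbr had 0.08 and -0.42, and the isomerase gene ebp had -0.14. The late enzymes sc5d and dhcr7 had 0.70 and 0.49, both short of a call. The median of the 13 genes was 0.70. So within the arm the called genes stood beside neighbours in the pathway with values close to 0, below 0 or positive but uncalled.

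The regulators of the pathway and the genes of sterol uptake gave 0 calls by Cuffdiff among 19 genes, with 2 higher at an unadjusted p under 0.05 and a median of 0.04. The LDL receptor gene ldlr had 81 FPKM in F2 BaP and 52.5 FPKM in F2 control livers (log2 fold change 0.63). The 2 genes under p 0.05 were insig2, a retention factor of the SREBP system, with 0.59, and npc1l1, a sterol importer, with 0.79. Bile acid synthesis and transport had 0 calls among 16 genes, with 1 lower at an unadjusted p under 0.05. Its first enzyme, cyp7a1, had 1.46 FPKM in F2 BaP and 1.57 FPKM in F2 control livers. A further called gene acts on sterols: sult2b1, a sulfotransferase of cholesterol and hydroxysteroids, had 18.5 FPKM in F2 BaP and 8.14 FPKM in F2 control livers (log2 fold change 1.18). In the same direction, acss2.2, which encodes an enzyme that makes acetyl-CoA from acetate, had 4.09 FPKM in F2 BaP and 1.82 FPKM in F2 control livers.

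In fatty acid and triglyceride synthesis, none of 27 genes was called higher and 1 was called lower. The fallen gene was me1, cytosolic malic enzyme, a source of NADPH, with 2.62 FPKM in F2 BaP and 6.2 FPKM in F2 control livers (log2 fold change -1.21). The triglyceride synthase gene dgat2 had 116 FPKM in F2 BaP and 437 FPKM in F2 control livers. This difference of -1.92 on the log2 scale, larger than that of me1, had q 0.179 in the authors' deposited table. Fatty acid synthase, fasn, had 64.7 FPKM in F2 BaP and 70.7 FPKM in F2 control livers. The carbohydrate-sensing factor mlxipl and the phosphatase gene lpin1, with 0.81 and 0.69, were higher at an unadjusted p under 0.05 only. Of 15 lipase and lipid droplet genes 1 was called: hormone-sensitive lipase, lipe, with 19.4 FPKM in F2 BaP and 2.08 FPKM in F2 control livers. The most abundant members of that list, fabp1, a fatty acid binding protein gene, cideb and lipc, had 0.39, -0.21 and -0.15 and were not called. Fatty acid oxidation had 0 calls among 30 genes, with 1 lower at an unadjusted p under 0.05, and 24 of its values lay below 0 (median -0.18).

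Of the sugar pathways, the route from galactose to glucose held 1 fallen gene among 9 of its list. This was galt (chromosome 1, 215905382 to 215914153), the uridylyltransferase of the Leloir pathway, with 70.1 FPKM in F2 BaP and 161 FPKM in F2 control livers (log2 fold change -1.19, q 0.00755 in the authors' deposited table). The list also held galk2 and akr1b1, lower at an unadjusted p under 0.05 with -0.59 and -0.48, and its median was -0.38. Glycolysis had 0 calls among 22 genes and 1 higher at an unadjusted p under 0.05. That gene, the liver pyruvate kinase pklr, had 85.3 FPKM in F2 BaP and 26.1 FPKM in F2 control livers, with q 0.373 in the authors' deposited table. Its start and end are the same as those given for fdps, so the separate levels of both genes are uncertain. Gluconeogenesis and glycogen genes had 0 calls among 12, with 1 lower at an unadjusted p under 0.05, the branching enzyme gene gbe1 (-0.86). The gluconeogenic gene pck1 had 3.88 FPKM in F2 BaP and 4.84 FPKM in F2 control livers. In the tricarboxylic acid cycle, ogdh, a subunit of 2-oxoglutarate dehydrogenase, rose to 29.7 FPKM in F2 BaP livers against 10.5 FPKM in F2 control livers.

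Other called genes of small-molecule metabolism went both ways. The regucalcin gene rgn rose, with 133 FPKM in F2 BaP and 55.9 FPKM in F2 control livers. So did mthfsd, placed here by its name only, with 21.8 FPKM in F2 BaP and 8.43 FPKM in F2 control livers. On the lower side stood agpat4, a lysophosphatidic acid acyltransferase (-0.91), the neutral sphingomyelinase gene smpd3 (-1.41), the retinol dehydrogenase gene rdh5 (-1.33), the polyamine regulator gene azin2 (-1.28) and slc27a3, of the fatty acid transport protein family (-1.48). Grouped by role after the values were seen, 17 called genes of lipid and central metabolism outside sterol synthesis split into 9 risen and 8 fallen. Uncalled genes of these roles were not counted, so this count has no share to set beside the 1.41% of all genes.

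**Figure D2:**
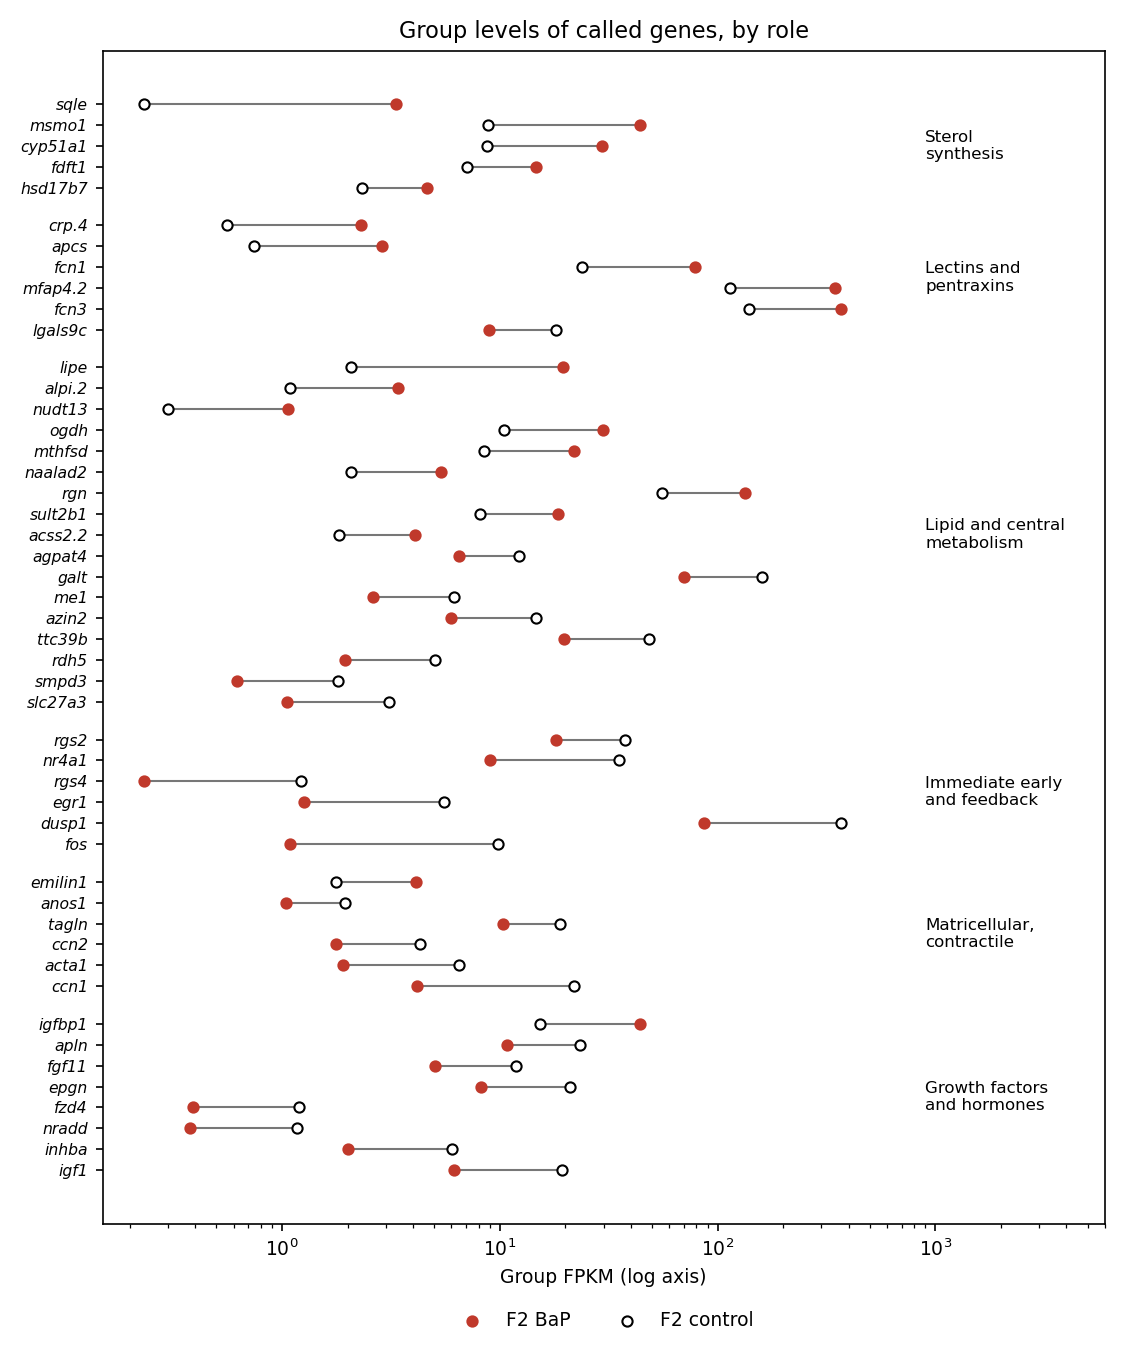
Group FPKM on a log x axis for called genes of 6 role groups, with F2 BaP as red points, F2 control as open points and a line joining both values of a gene. In sterol synthesis all 5 red points shown lie right of the open ones, and among immediate early and feedback genes all 6 lie left of them. The groups hold called genes only and were formed after the values were seen.

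Immediate early genes held 4 falls and no rise among 23 kept, with 8 lower and 1 higher by an unadjusted p under 0.05 and a median of -0.35. The MAP kinase phosphatase gene dusp1 (chromosome 3, 41976283 to 41979784) was the most abundant of the fallen genes, with 86.3 FPKM in F2 BaP and 369 FPKM in F2 control livers. The transcription factor gene fos had 1.09 FPKM in F2 BaP and 9.85 FPKM in F2 control livers, and egr1 had 1.26 FPKM in F2 BaP and 5.53 FPKM in F2 control livers. The orphan nuclear receptor gene nr4a1 had 9 FPKM in F2 BaP and 35.1 FPKM in F2 control livers. Its paralog nr4a2, with 11.6 FPKM in F2 BaP and 30.9 FPKM in F2 control livers, had a log2 fold change of -1.41 and q 0.089 in the authors' deposited table. The antiproliferative gene btg2 (-1.14), the mRNA decay factor gene zfp36 (-0.82) and the ERK phosphatase gene dusp6 (-0.59) were lower without a call. Against them, gadd45a had 6.35 FPKM in F2 BaP and 3.65 FPKM in F2 control livers. Of the list's other abundant members, btg1 had -0.35 and gadd45g had -0.07, both short of a call.

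The genes rgs2 and rgs4, feedback regulators of G protein signalling, also fell. They are named because they were called, and no list of such regulators was made. The level of rgs2 was 18 FPKM in F2 BaP and 37.5 FPKM in F2 control livers, and that of rgs4 0.233 FPKM in F2 BaP and 1.22 FPKM in F2 control livers. Among 16 targets of the transcription factors SRF and YAP, 3 fell and none rose. These were the matricellular genes ccn1, with 4.15 FPKM in F2 BaP and 22 FPKM in F2 control livers, and ccn2 (-1.23), and the smooth muscle gene tagln (-0.86). The most abundant contractile genes of the list were not called: myl9 had 60.5 FPKM in F2 BaP and 63.7 FPKM in F2 control livers, and acta2 had 53.5 FPKM in F2 BaP and 48.5 FPKM in F2 control livers. The list's median was -0.10.

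Markers of stellate cells and matrix, which share ground with those targets, had 1 rise and no fall among 21 genes (median 0.13). The risen gene, emilin1, encodes an elastic fibre glycoprotein and had 4.15 FPKM in F2 BaP and 1.77 FPKM in F2 control livers. The summed level of all 31 stellate and matrix markers in the table was 434 FPKM in F2 BaP and 375 FPKM in F2 control livers. Most of this sum came from fn1, with 323 FPKM in F2 BaP and 269.6 FPKM in F2 control livers, so it does not describe the other markers. Of 13 endothelial markers none was called, with 1 lower and 1 higher where the unadjusted p was under 0.05.

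The growth factor axis held 1 rise and 1 fall among 23 genes. Hepatic igf1 (chromosome 3, 49174280 to 49237834) fell to 6.15 FPKM in F2 BaP livers, against 19.3 FPKM in F2 control livers. The binding protein gene igfbp1 (chromosome 6, 59061028 to 59065930) rose to 43.9 FPKM in F2 BaP livers, against 15.4 FPKM in F2 control livers. Their log2 fold changes of -1.64 and 1.51 both carry q 0.00755 in the authors' deposited table. This is the smallest q there and is shared by 77 of the genes kept. The related genes were not called. The fetal growth factor gene igf2 had 82.2 FPKM in F2 BaP and 97.1 FPKM in F2 control livers, and the most abundant binding protein gene, igfbp4, had 189.5 FPKM in F2 BaP and 207 FPKM in F2 control livers. The growth hormone receptor gene ghr, with 2.53 FPKM in F2 BaP and 3.85 FPKM in F2 control livers, was lower at an unadjusted p under 0.05 only (log2 fold change -0.59). For the insulin receptor gene insr the value was -0.40.

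Among the called genes of growth factors, hormones, their binding proteins and receptors, grouped after the values were seen, igfbp1 was the 1 risen gene and 7 fell. Uncalled genes of these roles were not counted, so no share can be set beside the 1.41% of all genes. The count therefore does not describe such genes as a group. Besides igf1, inhba, which encodes a subunit of activin and inhibin, had 2 FPKM in F2 BaP and 6.04 FPKM in F2 control livers. The EGF receptor ligand gene epgn had 8.25 FPKM in F2 BaP and 21 FPKM in F2 control livers, and the peptide hormone gene apln (apelin) had 10.8 FPKM in F2 BaP and 23.4 FPKM in F2 control livers. The other fallen genes were fgf11 (-1.21), the Wnt receptor gene fzd4 (-1.40) and nradd (-1.42), the last pair at low levels in both groups. Here fgf11 is counted as a member of the fibroblast growth factor family only, and nothing is said of its action as a secreted factor.

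Soluble pattern-recognition proteins gave 4 rises and no fall among 10 kept genes of pentraxins, ficolins and collectins. Ficolins are lectins that tag microbes for complement. The more abundant of them, fcn3, had 371 FPKM in F2 BaP and 139 FPKM in F2 control livers, and fcn1 had 79 FPKM in F2 BaP and 23.8 FPKM in F2 control livers. The pentraxins crp.4 and apcs rose at low levels, to 2.3 and 2.89 FPKM in F2 BaP livers against 0.562 and 0.742 FPKM in F2 control livers. Both passed the filter of 1 FPKM through the F2 BaP group only, where they are high. A further tested gene of the list, under 1 FPKM in both groups, was left out. The counts and the median of this list thus depend on the filter. A far more abundant pentraxin gene, crp.2, had 314 FPKM in F2 BaP and 435 FPKM in F2 control livers and was not called. The collectin genes mbl2, colec10 and colec11 had -0.18, 0.43 and -0.56 and were not called, and with 5 values above and 5 below 0 the median of the list was 0.12. Outside the list, mfap4.2, of the fibrinogen-domain family to which ficolins belong, had 346 FPKM in F2 BaP and 114 FPKM in F2 control livers, while the galectin gene lgals9c fell to 8.94 FPKM in F2 BaP against 18 FPKM in F2 control livers.

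The other arms of liver immunity held few calls, as lists of such sizes would at the 1.41% share of all genes. Complement and coagulation had 0 calls among 40 genes, with 1 lower at an unadjusted p under 0.05. Acute phase and plasma proteins had 0 calls among 15, with 1 lower at an unadjusted p under 0.05, ceruloplasmin (cp, 97.7 FPKM in F2 BaP and 179 FPKM in F2 control livers). Among 27 interferon response genes 1 rose and none fell: the peptide transporter gene tap1, with 5.16 FPKM in F2 BaP and 2.43 FPKM in F2 control livers. The antiviral gene mx1 had 5.22 FPKM in F2 BaP and 9.65 FPKM in F2 control livers, a log2 fold change of -0.87 with q 0.13 in the authors' deposited table. Toll, TNF and NF-kB genes had 0 calls among 25, with 3 higher and 1 lower at an unadjusted p under 0.05. Leukocyte markers had 0 calls among 18, with 1 higher at an unadjusted p under 0.05 (coro1a, 0.70). Antigen presentation had tap1 as its 1 call among 16 genes. The summed level of all 22 leukocyte markers in the table was 167 FPKM in F2 BaP and 146 FPKM in F2 control livers. Outside the lists, 4 immune or blood cell genes were called and are named because of that. The kinase gene map3k8 (1.41), the eosinophil peroxidase gene epx (1.24) and the platelet integrin gene itga2b.1 (1.17) rose, and the granzyme gene gzmh fell (-1.25). The part of blood and immune cells in these was not tested.

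Of the transcription factors, per1, a repressor of the circadian clock, rose to 20.1 FPKM in F2 BaP livers against 9.17 FPKM in F2 control livers, the 1 call among 15 clock genes. The repressor gene cry2 was higher at an unadjusted p under 0.05 only (0.70), per3 had 0.55, and nr1d1 had 34.8 FPKM in F2 BaP and 33.8 FPKM in F2 control livers. The labels give no time of sampling. The Krüppel-like factor gene klf3 rose (1.38) and the orphan nuclear receptor gene nr0b1 fell, with 1.72 FPKM in F2 BaP and 5.46 FPKM in F2 control livers. Among 25 kept genes of the nuclear receptor list, which does not hold nr0b1, nr4a1 was the 1 call. The estrogen receptor gene esr1 had 7.95 FPKM in F2 BaP and 8.53 FPKM in F2 control livers.

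Called genes of membranes and cell machinery were mixed. In trafficking and cytoskeleton, grouped after the values were seen, 5 rose and 3 fell. Uncalled genes of this role were not counted, so no share can be set beside the 1.41% of all genes. The epithelial clathrin adaptor gene ap1m2 had 4.25 FPKM in F2 BaP and 0.921 FPKM in F2 control livers, and the mitotic kinesin gene kif4a had 17.7 FPKM in F2 BaP and 7.1 FPKM in F2 control livers. The early endosome GTPase gene rab5a (-1.12), the protein kinase C substrate gene marcks (-1.13) and the SNARE gene stx8 (-1.17) fell. Cell cycle genes as a list had 0 calls among 17 and 0 at an unadjusted p under 0.05, with mki67 at -0.23. The lysosomal protease gene ctsh fell (-1.50). Of the transporter genes, the metal importer slc39a8 (1.25), the dicarboxylate carrier slc13a3 (1.13) and slc12a8 (to 4.2 FPKM in F2 BaP against 1.42 FPKM in F2 control livers) rose, and slc26a9 (-1.73) and svopl (-1.67) fell. Of these, slc26a9 was the 1 call among 17 ABC and organic ion transporters, and amino acid transporters had 0 calls among 13, with 1 higher by an unadjusted p under 0.05. Among 13 markers of bile duct and mucosal epithelium, ap1m2 rose and slc26a9 fell, and the most abundant of them, krt19, had 650.3 FPKM in F2 BaP and 595 FPKM in F2 control livers.

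The pathway that BaP itself activates gave no call, but with 7 genes kept none would be likely at the 1.41% share of all genes. All 7 kept genes of the aryl hydrocarbon receptor list lay below 0, none at an unadjusted p under 0.05, with a median of -0.24. The oxidase gene cyp1a1 had 91.8 FPKM in F2 BaP and 115 FPKM in F2 control livers, and the receptor gene ahr had 4.17 FPKM in F2 BaP and 4.96 FPKM in F2 control livers. The receptor's partner arnt (-0.08), its chaperone aip (-0.37) and its target tiparp (-0.16) had values of the same sign. Among 15 other cytochrome P450 genes the sterol demethylase cyp51a1 was the 1 call, and cyp3a5, with 12.7 FPKM in F2 BaP and 7.07 FPKM in F2 control livers, was higher at an unadjusted p under 0.05 (q 0.0602 in the authors' deposited table). Conjugation enzymes had sult2b1 as the 1 call among 20, with 3 higher and 4 lower at an unadjusted p under 0.05. The lower ones included gsto2 (-0.84) and sult1e1 (-0.71).

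Stress and chromatin genes had no call, where lists of such sizes would hold few or none at the 1.41% share of all genes. Oxidative stress and NRF2 had 0 calls among 28, with 1 lower at an unadjusted p under 0.05, gpx4, which detoxifies lipid peroxides (-0.67). Heat shock genes had 0 calls among 24, with 2 lower at an unadjusted p under 0.05, and ER chaperones had 0 among 28, with 2 higher and 3 lower. The DNA damage response had 0 calls among 28, with 6 higher and 1 lower at an unadjusted p under 0.05. The 6 higher genes were gadd45a, ercc5 (0.69), ercc3 (0.69), ercc2 (0.62), ercc1 (0.63) and xpc (0.56), the last pair named after their values were seen. The ercc genes and xpc are known for nucleotide excision repair, which was not a list of its own here, and ddb1 and ddb2, which act in the same process, had -0.07 and 0.25, neither at an unadjusted p under 0.05. In the authors' deposited table q ran from 0.162 for ercc5 to 0.554 for xpc. The lower gene was mgmt, which reverses alkylation of guanine (-0.63). DNA methylation and chromatin genes had 0 calls among 27 and 0 at an unadjusted p under 0.05, with values from -0.34 to 0.45. The maintenance methyltransferase gene dnmt1 had 2.25 FPKM in F2 BaP and 1.77 FPKM in F2 control livers.

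**Figure D3:**
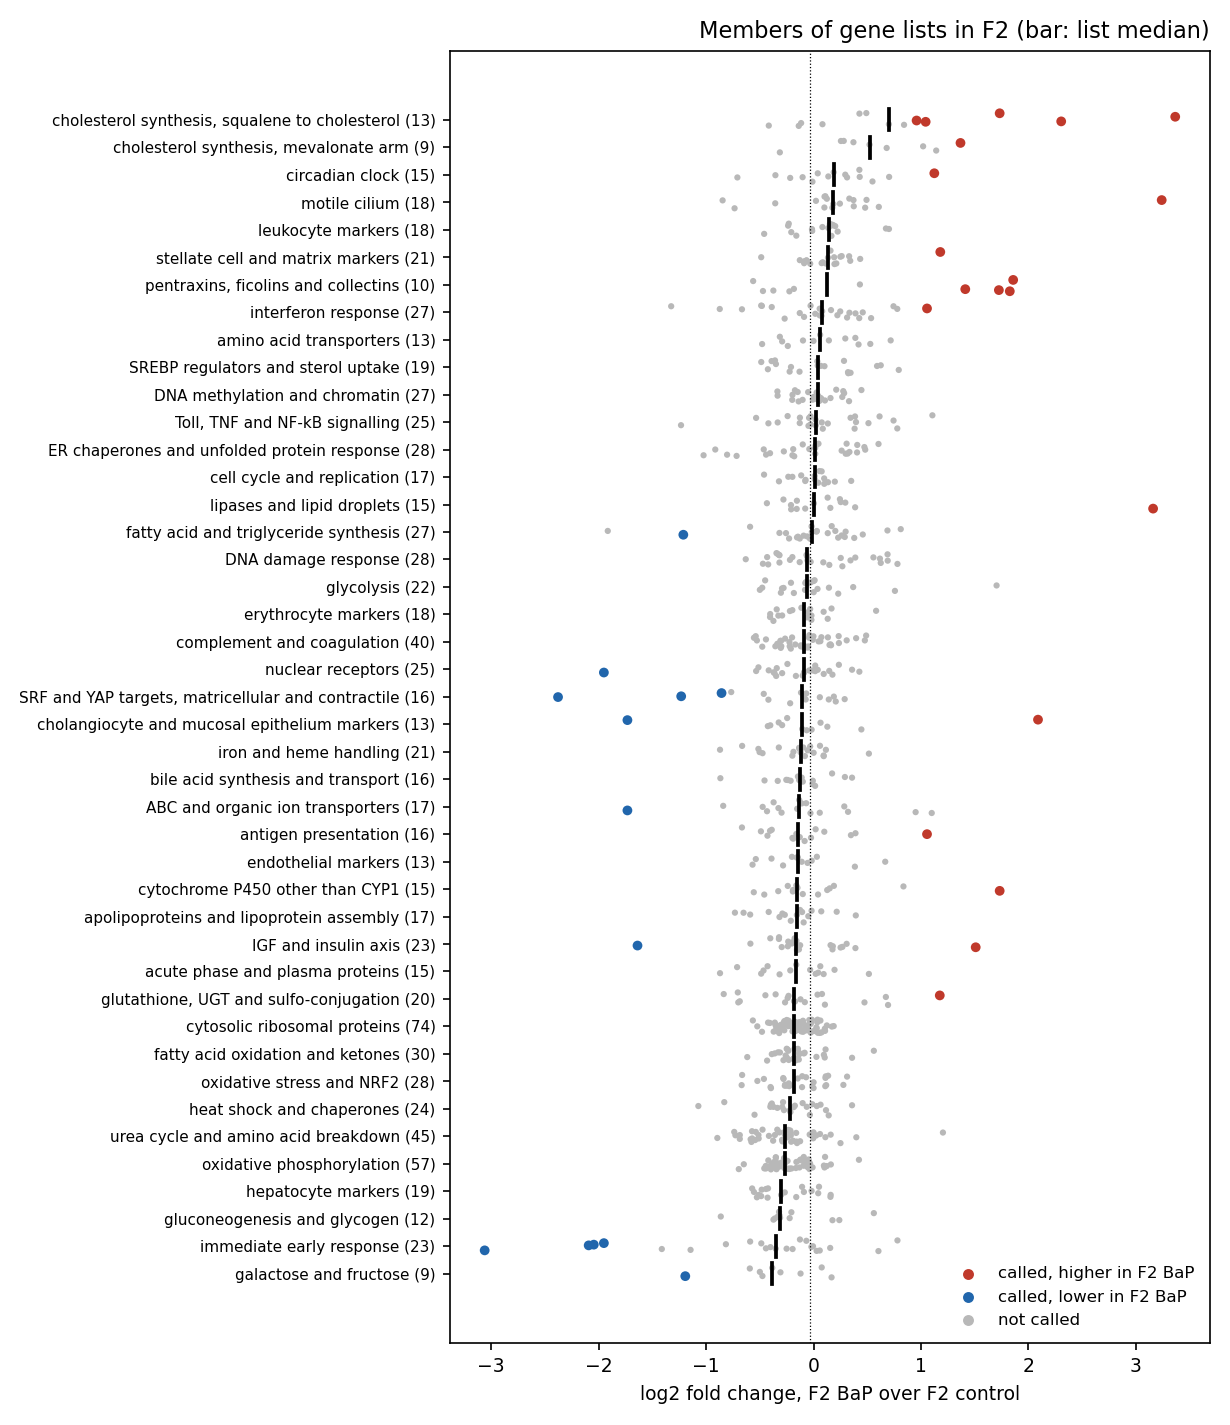
Each row is a gene list with at least 9 kept members (number in brackets), each point a member placed by its log2 fold change, F2 BaP over F2 control, the black bar the list's median and the dotted line the median of all 10818 genes. Of the lists drawn, both sterol synthesis lists lie at the top with medians of 0.70 and 0.52. Shorter lists with higher medians are not drawn: pancreas markers (1.91, 6 kept) and oviduct and oocyte markers (0.73, 3 kept). The oxidative phosphorylation and ribosomal lists form tight groups just left of 0 with no call.

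The median of the abundant genes lay slightly below 0. By mean FPKM, the 3950 genes between 3 and 10 FPKM had a median log2 fold change of -0.01, the 424 genes between 100 and 1000 FPKM one of -0.19 and the 131 genes above 1000 FPKM one of -0.18, where 79.4% of values were below 0. The class between 100 and 1000 FPKM held 4 called rises and 3 called falls, and the class above 1000 FPKM held 0 calls. All 74 ribosomal protein genes were in the class above 1000 FPKM, and 60 of their values lay below 0, with a median of -0.18 and 0 at an unadjusted p under 0.05. Oxidative phosphorylation genes had 51 of 57 below 0 with a median of -0.27 and 2 lower at an unadjusted p under 0.05, cox7a2 (-0.65) and atp5mc3 (-0.70). Genes of the urea cycle and amino acid breakdown had 38 of 45 below 0, with a median of -0.27. Here 5 lower genes and 1 higher gene had an unadjusted p under 0.05. The glutaminase gene gls2 had 13.8 FPKM in F2 BaP and 25.8 FPKM in F2 control livers, and the proline dehydrogenase gene prodh had 21.4 FPKM in F2 BaP and 9.23 FPKM in F2 control livers. FPKM is a share of the library, so values of abundant genes and of all others are tied together. Apolipoproteins and lipoprotein assembly had 0 calls among 17 genes, with 2 lower by an unadjusted p under 0.05, and iron and heme handling had 0 among 21, with 1 lower.

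Of the 152 called genes, 32 belonged to at least 1 of the 48 lists and 120 to none. The largest rise was that of LOC100494627 (chromosome 7), with 5.25 FPKM in F2 BaP and 0.249 FPKM in F2 control livers. LOC105946701 had 1.24 FPKM in F2 BaP livers and was listed at 0 in F2 control livers. The largest fall was that of LOC100145100 (chromosome 3, 143586440 to 143589937), with 0.867 FPKM in F2 BaP and 21.4 FPKM in F2 control livers. None of these has a name in the gene table used, and nothing is said of what they encode. The most abundant called gene by its mean was MGC89221, also without a name, with 443 FPKM in F2 BaP and 152 FPKM in F2 control livers. Among genes with a symbol, tm4sf18, of the tetraspanin-like transmembrane 4 family, had 65.8 FPKM in F2 BaP and 11.7 FPKM in F2 control livers, and lrrc43 had 3.57 FPKM in F2 BaP and 0.288 FPKM in F2 control livers. Of the 258 genes past 2-fold, 126 were not called, and the largest of these, LOC100496169 and LOC116409520, had 0.00781 and 0.0104 FPKM in F2 BaP and 2.51 and 2.04 FPKM in F2 control livers, with q of 0.902 and 0.898 in the authors' deposited table. The calls end at q 0.0491 in the authors' deposited table, with 4 genes, and just outside it, at q 0.0507, stood 7 genes, among them ttc37 (0.89), tnfsf14 (1.99) and slc6a14.1 (-0.86).

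Some called genes lay next to each other in the genome. Within 100 kb of a called gene lay 28 of the 152 called genes (18.4%) and 459 of the 10666 uncalled genes (4.30%), and 26 of the 28 had a called neighbour of the same direction. This comparison was added after the data were seen and has no test. Positions are those of the authors' table, where both ends of 91.6% of single names are those of assembly UCB_Xtro_10.0. The 28 genes formed 13 runs, 12 of them in a single direction, and 15 of the 28 were LOC genes. On chromosome 8, LOC100145014, fcn3 and fcn1 stood side by side from 3657367 to 3691879 and rose by 1.97, 1.41 and 1.73 on the log2 scale. Also on chromosome 8, from 126129570 to 126145991, apcs and crp.4 flank MGC107876, which was not called and had 528 FPKM in F2 BaP and 779 FPKM in F2 control livers. Risen genes and an abundant gene with a value below 0 thus stood within 16.4 kb. On chromosome 3, from 141379713 to 141659632, LOC101734099, LOC100497914 and LOC100497762 rose by 1.26, 1.24 and 1.34. The table gives LOC101734099 the same start and end as another row. On the same chromosome, slc27a3 and ctsh fell, and the 3 uncalled genes between them, hykk, ctsl and LOC100496172, had -0.92, -0.88 and -0.40. Of these, hykk and ctsl have the same start and end, so their separate levels are uncertain. On chromosome 7, msmb.1 and LOC100491107 lay within 17.1 kb and went opposite ways, with 2.12 and -2.36. Neighbouring copies of a gene family can share reads, so values within such a run are uncertain for single genes, and how the authors assigned such reads is not given in the sources used here.

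**Figure D4:**
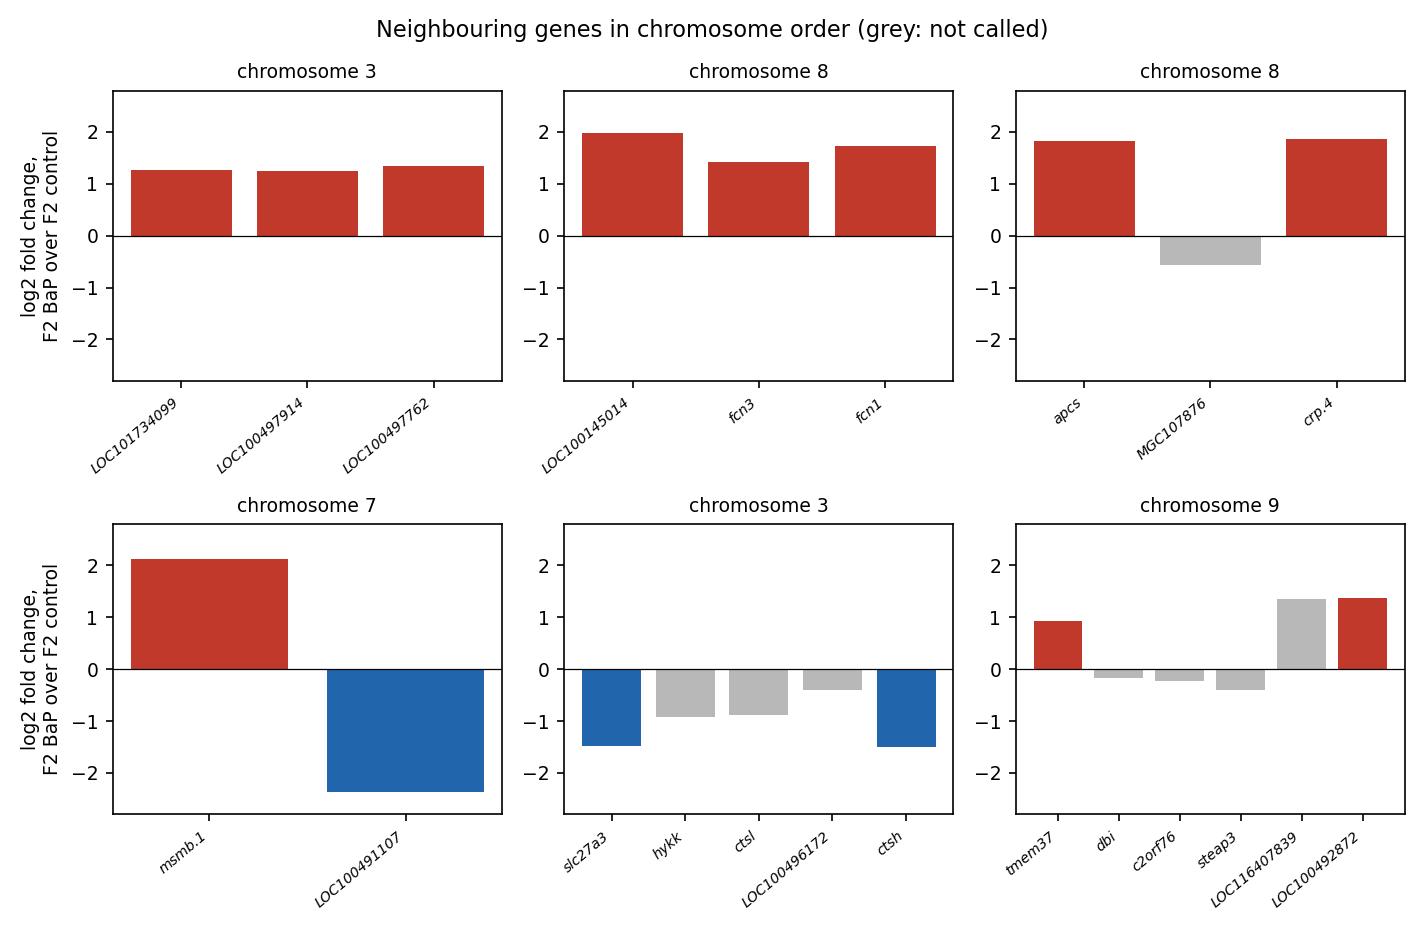
Bars give the log2 fold change, F2 BaP over F2 control, of neighbouring genes in their order along the chromosome for 6 of the 13 runs, in red or blue where called and grey where not. All 3 bars of the run with fcn3 are called higher, and msmb.1 and LOC100491107 point opposite ways.

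The F2 calls were set beside the F1 comparison, which has its own controls. In F1, 192 of 11309 genes kept by the same filters were called (1.7%). Of the 152 F2 calls 148 were tested in F1 and 24 were called there, which is 15.8% of the F2 calls and 12.5% of the F1 calls. Of these 24, 15 had the same direction in both generations, 12 of them higher and 3 lower, and 9 had opposite directions. The sign was the same in both generations for 81 of the 148, made up of 46 of 89 rises and 35 of 59 falls. No share over all genes is given beside this count. Among those called in the same direction were igfbp1, with a log2 fold change of 1.51 in F2 and 2.38 in F1, tap1 with 1.06 in F2 and 1.36 in F1, emilin1 with 1.18 in F2 and 1.41 in F1, and galt with -1.19 in F2 and -1.46 in F1. The microseminoprotein-type gene msmb.1 had 2.12 in F2 and 2.27 in F1, and acta1 had -1.72 in F2 and -3.17 in F1.

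The 9 genes called in opposite directions included sqle, msmo1, cyp51a1 and hsd17b7 of sterol synthesis, with acss2.2, lipe, ap1m2 and tgm4. The sterol demethylase gene cyp51a1 had 1.73 in F2 and -3.72 in F1, where it had 5.47 FPKM in BaP and 73.1 FPKM in control livers. Likewise acss2.2 had 1.13 in F2 and -2.30 in F1, lipe 3.16 in F2 and -1.44 in F1, ap1m2 2.09 in F2 and -1.06 in F1, and the transglutaminase gene tgm4 2.36 in F2 and -2.76 in F1. The control livers of both generations also differed in these genes. In control livers cyp51a1 had 73.1 FPKM in F1 and 8.76 FPKM in F2, and msmo1 had 58.5 FPKM in F1 and 8.85 FPKM in F2. The other genes named above with opposite directions were also lower in F2 than in F1 control livers. The part of the controls in the opposite directions was not tested. A normal test of the F2 minus F1 difference took standard errors from the deposited p-values, with Benjamini-Hochberg adjustment over 11604 genes. It called 117 of the 11604 genes, 34 of them among the 148. The 148 were picked by their F2 result, which the test uses again, so a larger share among them is favoured by the selection. For cyp51a1 the difference was 5.45 on the log2 scale, for acss2.2 3.43 and for egr1 -2.74, all called. For igf1 (-1.81), fos (-2.65), dusp1 (-2.82), per1 (1.35) and fcn3 (0.49) it was not called, so those changes are not shown to differ between generations. The control livers differed in these genes too. In control livers igf1 had 1.82 FPKM in F1 and 19.3 FPKM in F2, fos 2.95 and 9.85 FPKM, and dusp1 194 and 369 FPKM. By contrast, per1 had 32.5 FPKM in F1 and 9.17 FPKM in F2 control livers, and fcn3 544 and 139 FPKM. The part of the controls in these changes was not tested. With standard errors taken instead from the deposited test statistic, 1 of the 148 was called, msmo1.

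**Figure D5:**
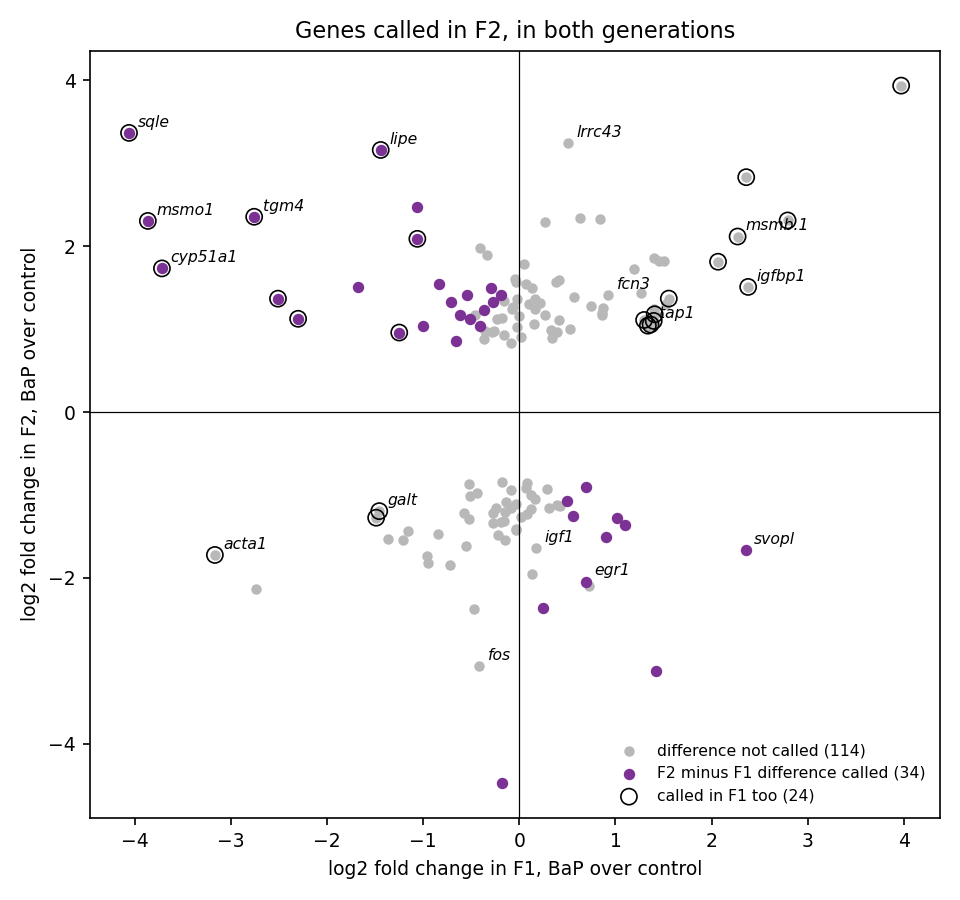
Each point is 1 of the 148 genes called in F2 and tested in F1, with the F1 log2 fold change on the x axis and the F2 log2 fold change on the y axis, both BaP over control. Purple marks the 34 genes whose difference was called, and circles mark the 24 genes also called in F1, of which 9 lie in quadrants of opposite sign.

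Markers of tissues beside the liver moved in some of the same rows. Of 29 pancreas markers 6 were kept, none was called and 3 were higher at an unadjusted p under 0.05. The chymotrypsin gene ctrc had 5.17 FPKM in F2 BaP and 0.316 FPKM in F2 control livers, and the elastase gene cela3a had 4.68 FPKM in F2 BaP and 0.521 FPKM in F2 control livers. Of the 6 kept, 5 lay above 0 and 1 below, with a median log2 fold change of 1.91. Members such as ctrc and cela3a passed the filter of 1 FPKM through the F2 BaP group only, where they are high. A further tested marker under 1 FPKM in both groups was left out. The count above 0 and the median thus depend on the filter and are not read as a shift. The summed level of the 22 pancreas markers in the table was 348 FPKM in F2 BaP and 337 FPKM in F2 control livers. Most of this sum came from the amylase gene amy2b, with 265 FPKM in F2 BaP and 299 FPKM in F2 control livers. The near-equal sums therefore do not describe the other pancreas markers. Markers listed at 0 numbered 5 in F2 BaP and 8 in F2 control livers. Of 26 skeletal muscle markers 4 were kept and 1 fell, acta1, and their summed level over the 22 in the table was 8.59 FPKM in F2 BaP and 17.1 FPKM in F2 control livers. Of 15 pigment cell markers 2 were kept and 1 fell, pmel, with 1.07 FPKM in F2 BaP and 3.06 FPKM in F2 control livers. Oviduct and oocyte markers had msmb.1 as the 1 call, with 30 FPKM in F2 BaP and 6.84 FPKM in F2 control livers. Of 18 motile cilium genes lrrc43 was the 1 call and the 1 gene higher at an unadjusted p under 0.05, while 2 were lower, dnai1 (-0.74) and ccdc103 (-0.85), and 15 values were above 0. Here lrrc43 passed the filter through the F2 BaP group only, and 9 tested genes of the list under 1 FPKM were left out. These counts thus depend on the filter as well. Erythrocyte markers had 0 calls among 18 and 0 at an unadjusted p under 0.05. Without the pancreas, muscle, pigment, erythrocyte and oviduct lists, 149 genes were called, 89 higher and 60 lower. The part of other tissues in single genes was not tested.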

How the data were processed

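Poly(A) RNA of liver was sequenced as stranded libraries with 75-base reads, per the labels' protocols. Cuffdiff 0.0.7, Cufflinks 0.0.7, HISAT2 and Trimmomatic 0.32.1 were used, per the submitters' processing notes, which give no parameters here, and the genome build is not given in the sources used here. All 20077 single names matched a RefSeq gene of UCB_Xtro_10.0, with both ends identical for 91.6%, and positions count from 1. The authors' deposited FPKM values are 1 per group, so no frog's spread or library depth is known. The deposited p-values and q-values, log2 fold changes and test statistic scores come from the authors' Cuffdiff test, which was not repeated. The labels number the frogs but do not say that they came from separate clutches or tanks, so p-values measure the spread between these frogs only.

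From the deposited values, fold changes were recomputed with a pseudocount of 0.1 (Python 3.11.15, pandas 2.3.3, scipy 1.17.1). Left out were 143 rows with several names, 68 with none, 8039 not tested, 12 with too much data, 1 failed and 1342 single-name tested rows under 1 FPKM. Of the names kept, 2 stood in 2 rows each. The F2 minus F1 difference was divided by its standard error, derived from the deposited fold change and p of each generation. The step was tested on simulated data, but the outcome is not given here and is no support for its calls. Alternatives were other q and FPKM limits, pseudocounts, centring, q over the kept genes alone, rows with several names, no LOC names and no genes of other tissues.

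The filters, gene lists and tests were chosen with earlier results of these data known. Named genes were all called genes with a symbol, each list's 4 most abundant members and 4 of smallest p, the 10 largest rises and falls, and 13 set genes. Sterol synthesis genes short of a call, the neighbours of called genes, ercc1, xpc, ddb2, genes just outside the threshold and the role groups were added after the values were seen. A few of these genes are not reported here, though they stay in the counts and list medians.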

Additional observations from a re-analysis of the deposited data

Results flagged for a closer look

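For 34 of the genes called in F2, the F2 minus F1 difference of the BaP over control log2 fold changes passed a normal test with Benjamini-Hochberg adjustment. Over all 11604 genes tested, the difference passed for 117. The genes called in F2 were picked by the same F2 result that the test uses, which favours such differences. Among the 34, the difference was positive for 23 genes and negative for 11. The positive ones included 5 genes of sterol synthesis, with differences of sqle (7.43), msmo1 (6.17), cyp51a1 (5.45), hsd17b7 (2.21) and fdft1 (2.05) on the log2 scale. In other metabolism the differences were acss2.2 (3.43), lipe (4.60) and naalad2 (1.61). Further positive differences were those of tgm4 (5.11), tm4sf18 (3.54), ccdc166 (3.19), ap1m2 (3.15), MGC89221 (2.39), rusc1 (2.03), map3k8 (1.96) and slc12a8 (1.79), and of the LOC genes LOC101732936 (1.79), LOC101732441 (1.64), LOC100493336 (1.60), LOC100497768 (1.60), LOC100488102 (1.52) and LOC100135349 (1.44). Negative differences were those of klhl25 (-1.57), gzmh (-1.81), azin2 (-2.29), ctsh (-2.40), vstm2l (-2.45), egr1 (-2.74) and svopl (-4.02), and of the LOC genes LOC100490816 (-1.59), LOC100491107 (-2.61), LOC100145100 (-4.29) and LOC100495695 (-4.54). With standard errors from the deposited test statistic, msmo1 alone passed.

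Outside the genes kept, 10 more rows had a q under 0.05 in the authors' deposited table, and 7 of them were higher in F2 BaP livers. Of these, 1 carries several names, LOC116407969 and LOC116407970, with 15.9 FPKM in F2 BaP and 5.85 FPKM in F2 control livers. The other 6 stayed under 1 FPKM in both groups. The gel-forming mucin gene muc2 had 0.739 FPKM in F2 BaP and 0.221 FPKM in F2 control livers, and the cytochrome P450 gene cyp2a6.4 had 0.59 FPKM in F2 BaP and 0.167 FPKM in F2 control livers. The zinc finger gene zmat4 had 0.536 FPKM in F2 BaP livers and was listed at 0 in F2 control livers. LOC100036663 had 0.785 FPKM in F2 BaP and 0.191 FPKM in F2 control livers, LOC100494984 had 0.724 FPKM in F2 BaP and 0.350 FPKM in F2 control livers, and LOC101735170 had 0.889 FPKM in F2 BaP and 0.151 FPKM in F2 control livers.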

How the results depend on the processing

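The count of 152 called genes, 90 higher and 62 lower, moved by more than 1.5 times under 3 settings. At q under 0.01, 77 genes were called, 39 higher and 38 lower. With an FPKM minimum of 5, 96 were called, 53 of them higher. Without LOC genes, 100 were called, 53 higher and 47 lower. These settings keep fewer genes by construction. Under q under 0.1, q over the kept genes alone, no FPKM minimum, a fold minimum of 1.5, rows with several names added and genes of other tissues removed, the counts stayed within 1.5 times. The count of 34 genes whose F2 minus F1 difference was called became 1 with standard errors from the test statistic, because the z from the authors' p is a median of 2.28 times that statistic. The sign of a fold change cannot depend on the pseudocount, so pseudocounts of 0.01 and 1 are no check of direction. Of 49 medians (48 lists and all genes), 9 moved by over 0.1 at an FPKM minimum of 5 and 3 without a minimum. At a pseudocount of 0.01, 1 moved, and at a pseudocount of 1, 5 did. Centring shifts every median by the same small amount, the median of all genes (-0.04), so none could move by over 0.1. Windows of 50 and 200 kb, chosen after seeing the data, put 20 and 39 called genes next to another (13.2% and 25.7%, against 2.62% and 6.77% of uncalled genes). Leaving out single frogs was not run, since the tables hold group values only. No paired analysis was possible because the tables hold no values of single libraries. Depth is unknown, so a gene short of a call is not shown to be the same in both groups.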
